A study of Homo sapiens with 12 samples.

Results

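The 4 TEAD transcription factors (TEAD1 to TEAD4), their co-activators YAP1 and WWTR1, and 4 of their best-known target genes (CCN1, CCN2, AMOTL2 and ANKRD1) were followed across parental and sunitinib-resistant clear cell renal cell carcinoma (ccRCC) cell lines. These 10 genes were selected by gene symbol from the 45478 rows of the raw count table, and each matched 1 row. The choice was made with their values in these libraries known, TEAD2 in particular because it was seen in A498 only. The levels and fold changes of the 10 genes are therefore a description and carry no test. All 10 were among the 19929 genes that passed the filter on low counts. TEAD2 passed through A498 alone, with at most 20 counts in any other library.

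mRNA was sequenced from 4 groups of 3 replicate libraries each. 786-O and A498 are established human ccRCC lines that lack functional VHL, the tumor suppressor that degrades hypoxia-inducible factors. A resistant culture was selected from 786-O in 4 μM sunitinib and another from A498 in 2 μM, over 4 months or more than 20 passages, and the study calls each of them a clone. Both were kept in the drug throughout selection. Below, these cultures are called resistant 786-O and resistant A498, and 786-O and A498 without a qualifier are the parental lines. Sunitinib is an inhibitor of VEGF, PDGF and other receptor tyrosine kinases. The labels record sunitinib resistance for the 2 selected groups. Their treatment field reads none for every library, while the short code in each sample name holds the letters veh, which the labels do not explain.

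In the Hippo pathway, the kinases MST1 and MST2 (genes STK4 and STK3) activate LATS1 and LATS2, which phosphorylate YAP and TAZ (genes YAP1 and WWTR1) and hold them in the cytoplasm. When the kinases are inactive, YAP and TAZ enter the nucleus and, having no DNA-binding domain of their own, act through the TEAD proteins, which read a short sequence at promoters and enhancers. Spread shape, stiff substrate and low cell density favor the nuclear form, and transcripts such as CCN1, CCN2 and ANKRD1 are widely used as a readout, although other pathways also induce them. Because the pathway acts through protein phosphorylation and location, which were not measured by mRNA sequencing, transcript levels alone do not give its activity.

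Total counts per library ranged from 20042519 to 47972092. Each group carried a batch label of its own, so batch and group cannot be told apart. Among 7 ccRCC markers, PAX8, VIM, KRT8, KRT18 and VEGFA were at a mean of at least 1 CPM (counts scaled to the library size after TMM normalization) in all 4 groups, NDUFA4L2 in none and CA9 in A498 only. Of 8 T cell markers, 0 reached 1 CPM in any group, and their summed level was at most 0.634 CPM in a library. The libraries labelled resistant A498 did not resemble A498. Across genes, log2 CPM correlated at a median of 0.870 when paired with A498 libraries, 0.951 for 786-O and 0.982 for resistant 786-O, against 0.994 between the A498 replicates. The median was 0.868 between 786-O and A498, and 0.954 between resistant 786-O and 786-O. Because of these correlations, the fold changes of resistant A498 are given against A498, as the labels pair them, and against 786-O. Of the 10 genes followed here, 7 were nearer to 786-O than to A498 in resistant A498, a count not set against all genes. Among all 3 other groups, the nearest was resistant 786-O for TEAD2, TEAD3, CCN2 and AMOTL2, and A498 for TEAD1 and WWTR1. In resistant 786-O, replicate 2 stood apart, with an SD of 0.29 for its log2 deviation from replicates 1 and 3 over 9925 genes, against 0.12 for the difference of those 2.

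**Figure D1:**
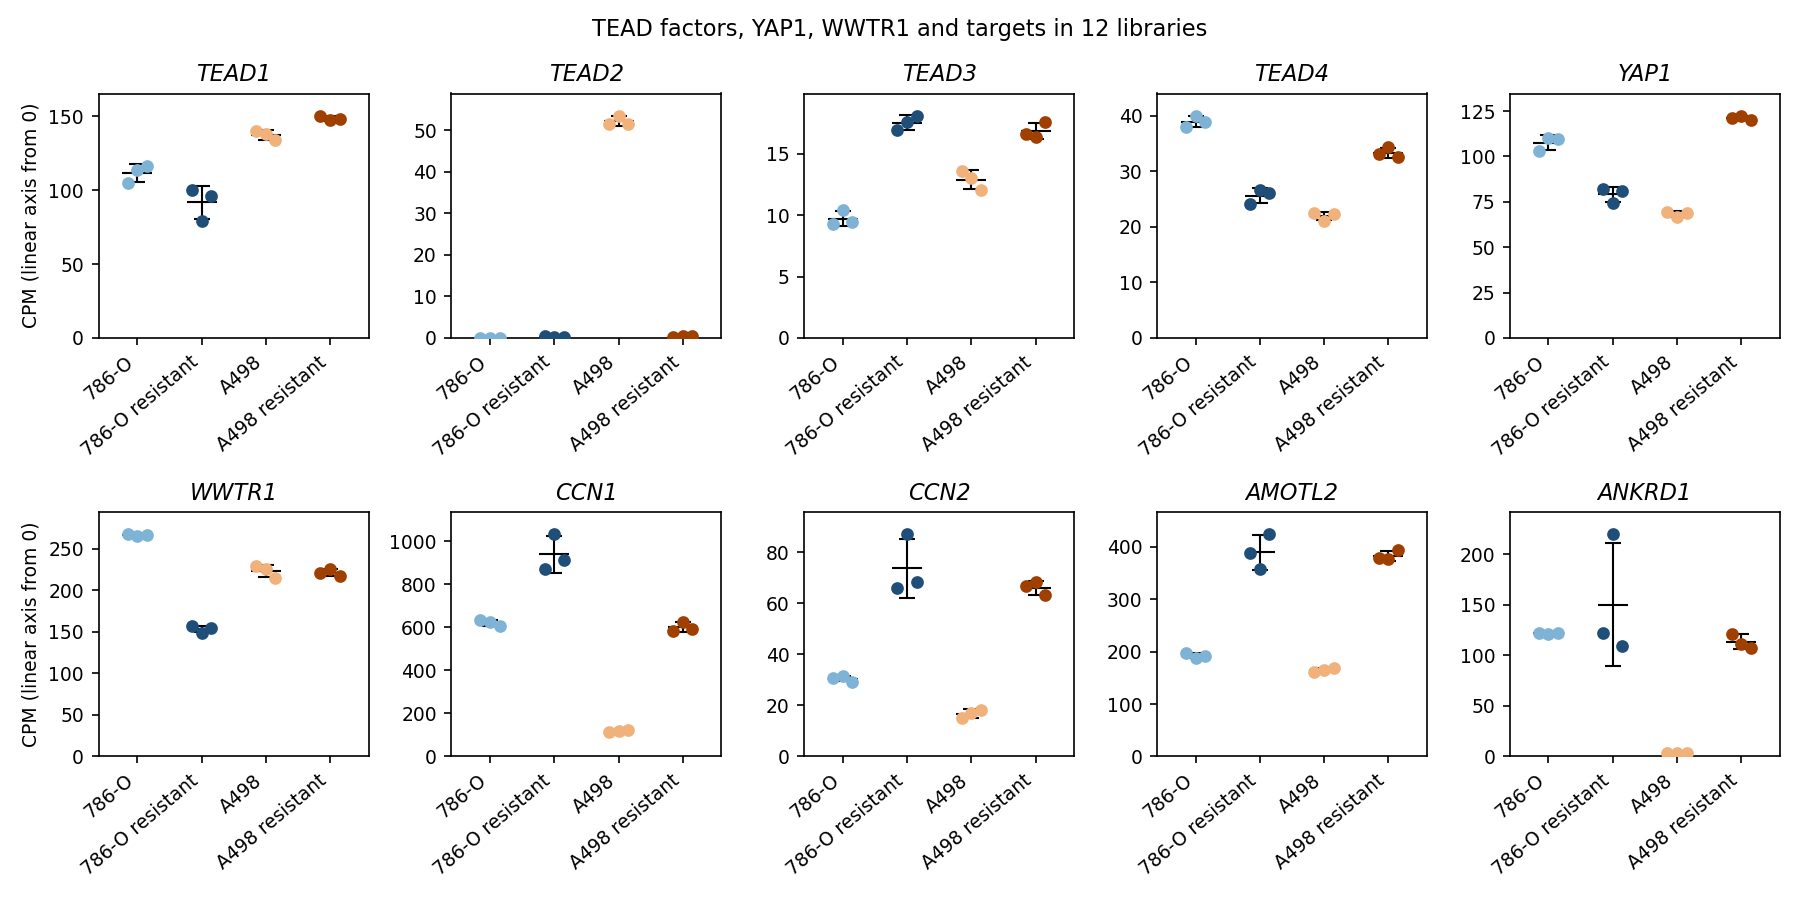
Level of each of the 10 genes in CPM, on linear axes that start at 0, for 786-O, resistant 786-O, A498 and resistant A498. Points are the 3 libraries of a group, and the black marks are the mean and SD. TEAD2 stood above 51 CPM in A498 and under 0.5 CPM elsewhere, while ANKRD1 was under 4 CPM in A498 and above 107 CPM in the other libraries.

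TEAD2 was high in A498 and near 0 in all other libraries. TEAD2 (chromosome 19, 49340595 to 49362457, minus strand, GRCh38) had 1780, 1150 and 1396 counts in the A498 libraries. It had 3, 0 and 2 counts in 786-O, 20, 7 and 6 in resistant 786-O, and 5, 9 and 12 in resistant A498. On the CPM scale this was 52.1 ± 1.17 (mean ± SD, n = 3) in A498, 0.0411 ± 0.0396 in 786-O, 0.233 ± 0.152 in resistant 786-O and 0.362 ± 0.153 in resistant A498. The A498 libraries did not overlap with any other library, and the 3 remaining groups all stood under 0.5 CPM. In these bulk libraries, fewer cells with a transcript and less of it per cell cannot be told apart.
The level in A498 was 146 times that in resistant A498, with a 95% interval of 99.8 to 225 from the pooled counts by the exact Clopper-Pearson method. Against 786-O the ratio of A498 was 1266 (95% interval 542 to 3900, over 5 counts in 786-O). It was 2176 without 786-O replicate 1 and 864 without 786-O replicate 2. The intervals cover counting error only, and PCR copies are not independent molecules. Between resistant 786-O and 786-O, with 33 and 5 counts, the ratio was 5.81 (95% interval 2.25 to 19.1), a difference at a level of under 0.5 CPM. It rested on few libraries, being 3.54 without replicate 1 of resistant 786-O, which held 20 of the 33 counts, and 9.99 without 786-O replicate 1. Resistant A498, with 26 counts, was at 8.64 times the level of 786-O (95% interval 3.26 to 28.8). It was at 14.9 times without 786-O replicate 1 and at 5.90 times without 786-O replicate 2. CD37, a tetraspanin gene that overlaps TEAD2 on the opposite strand, had 409, 267 and 322 counts in A498 and at most 5 in any other library. The library kit keeps strand, but the strand setting stated for counting is the opposite of the one the kit calls for. Reads of overlapping genes on opposite strands may therefore be counted for the wrong gene or not be separated. The part of CD37 in the TEAD2 counts was not tested.

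The other 3 TEAD transcripts were present in all 12 libraries, and each had an order of its own across the groups. TEAD1 (chromosome 11, 12674421 to 12944737) was at 105, 113 and 116 CPM in 786-O and at 99.9, 79.1 and 96.2 CPM in resistant 786-O, with no overlap. On the log2 scale resistant 786-O was at -0.28 ± 0.07 relative to 786-O (fitted log2 fold change ± its standard error, as for all fold changes below). Without resistant 786-O replicate 2 it was -0.19. In A498, TEAD1 was at 140, 138 and 134 CPM, and in resistant A498 at 150, 147 and 148 CPM. The libraries of these 2 groups did not overlap, and the log2 fold change was small, at 0.11 ± 0.07 (95% interval -0.04 to 0.26). Against 786-O, TEAD1 in resistant A498 stood 0.41 higher on the log2 scale (standard error 0.07).
TEAD3 (chromosome 6, 35473597 to 35497079) was the only TEAD gene with measurable expression in all groups that was higher in both resistant groups than in either parental group. It was at 9.26, 10.4 and 9.45 CPM in 786-O, and at 16.9, 17.6 and 18.1 CPM in resistant 786-O. In A498 the values were 13.6, 13.02 and 12.1 CPM, and in resistant A498 16.6, 16.3 and 17.6 CPM. The parental groups were separate from each other and from the resistant groups, whereas resistant 786-O and resistant A498 overlapped. The fitted log2 change was 0.85 ± 0.07 in resistant 786-O, 0.39 ± 0.08 for resistant A498 against A498 and 0.79 ± 0.07 against 786-O.
TEAD4 (chromosome 12, 2959330 to 3040676) differed in opposite directions by the labels. It was at 38.1, 40.04 and 38.9 CPM in 786-O against 24.2, 26.7 and 26.1 CPM in resistant 786-O, which is -0.60 ± 0.05 on the log2 scale. In A498 it was at 22.5, 21.1 and 22.3 CPM against 33.1, 34.4 and 32.7 CPM in resistant A498, which is 0.60 ± 0.06 on the log2 scale. None of the 4 groups overlapped with another. With 786-O as the reference, the value in resistant A498 was -0.23 ± 0.05, the same sign as in resistant 786-O.

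Scaled to exon length, so that genes can be compared within a library, the makeup of the TEAD family differed between the lines. In A498, TEAD2 made up 39.6 ± 0.877% of the summed TEAD transcripts (mean ± SD, n = 3), TEAD1 29.0 ± 0.286%, TEAD4 21.8 ± 0.877% and TEAD3 9.55 ± 0.425%. In 786-O, TEAD4 took 55.7 ± 0.804%, TEAD1 33.9 ± 1.01% and TEAD3 10.3 ± 0.426%, with TEAD2 at 0.0458 ± 0.0448%. TEAD4 was thus the most abundant paralog per length in 786-O and TEAD2 in A498.
In resistant 786-O, the share of TEAD3 was 22.4 ± 0.738% and that of TEAD4 43.96 ± 2.87%. In resistant A498, TEAD4 took 42.9 ± 0.967%, TEAD1 40.6 ± 0.593% and TEAD3 16.2 ± 0.703%. The summed level was 44.2 ± 0.624 CPM per kb of exon in A498, 34.2 ± 0.169 in resistant A498, 30.8 ± 1.05 in 786-O and 25.7 ± 0.727 in resistant 786-O, in which order no neighbouring groups overlapped. The TEAD sum of A498 without TEAD2 was lower than the sum in 786-O.

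**Figure D2:**
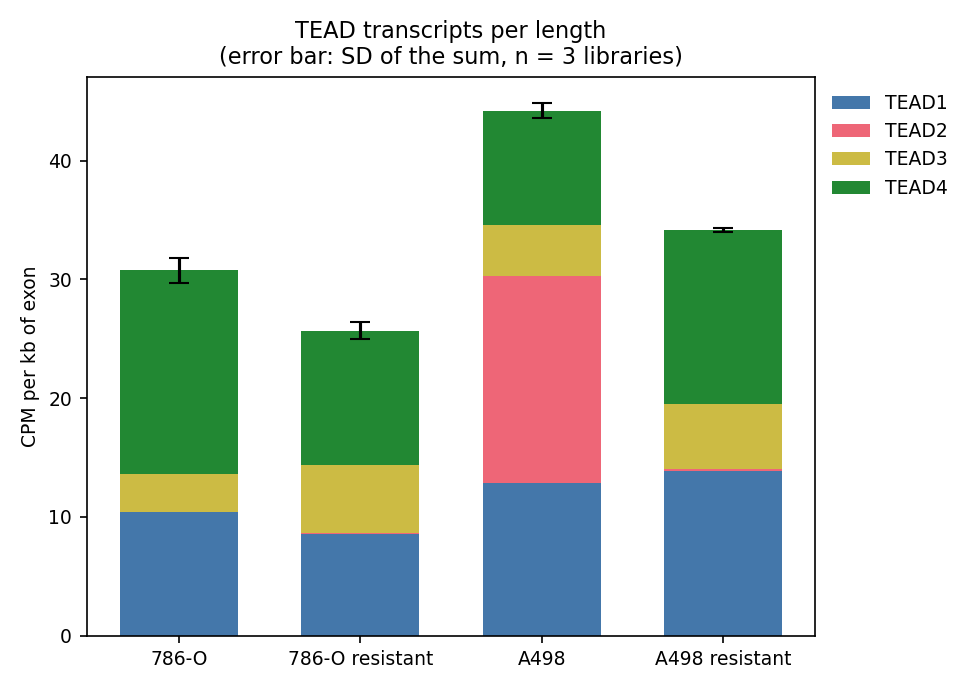
Stacked mean levels of the 4 TEAD transcripts in CPM per kb of exon (linear axis from 0) in the 4 groups, with the SD of the sum over 3 libraries as error bar. TEAD2 forms 39.6% of the bar of A498 and under 0.4% of each other bar.

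Both co-activator transcripts were lower in resistant 786-O than in 786-O, and in resistant A498 they took different courses. YAP1 (chromosome 11, 102110447 to 102233424) was at 103, 110 and 110 CPM in 786-O and at 82.1, 74.3 and 81.0 CPM in resistant 786-O, which is -0.44 ± 0.05 on the log2 scale. It was at 69.4, 66.7 and 68.9 CPM in A498 and at 121, 122 and 120 CPM in resistant A498, which is 0.83 ± 0.05 on the log2 scale. Against 786-O, the value in resistant A498 was 0.17 ± 0.05. The order from A498 through resistant 786-O and 786-O to resistant A498 held without overlap between neighbours.
WWTR1 (chromosome 3, 149517235 to 149736714), which encodes TAZ, was at 268, 266 and 267 CPM in 786-O and at 157, 149 and 154 CPM in resistant 786-O. The log2 fold change was -0.80 ± 0.04. In A498 it was at 229, 225 and 215 CPM and in resistant A498 at 221, 226 and 217 CPM, so that these groups overlapped, with a log2 fold change of -0.01 (95% interval -0.10 to 0.08). Against 786-O, WWTR1 in resistant A498 was lower, at -0.27 ± 0.04.
Per length, WWTR1 exceeded YAP1 in every library. The ratio was 2.47 ± 0.101 in A498, 1.88 ± 0.0795 in 786-O, 1.47 ± 0.0415 in resistant 786-O and 1.38 ± 0.0129 in resistant A498. Both resistant groups thus had a smaller excess of WWTR1 than either parental group. YAP1 and WWTR1 are overlapped on the opposite strand by antisense genes. Of these, an unnamed gene at YAP1 had at most 710 counts in a library and WWTR1-AS1 at most 574. The same limit of strand holds for YAP1 and WWTR1.

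The targets CCN1, CCN2 and AMOTL2 differed in direction from the co-activators in resistant 786-O. These targets were higher than in 786-O without overlap, while YAP1, WWTR1, TEAD1 and TEAD4 were lower. Of the remaining genes, TEAD3 was also higher without overlap (log2 fold change 0.85), TEAD2 was higher at few counts, and the target ANKRD1 overlapped. CCN1 (chromosome 1, 85580761 to 85584589), a secreted matricellular protein that binds integrins, was at 635, 623 and 607 CPM in 786-O and at 871, 1033 and 913 CPM in resistant 786-O. In A498 it was at 112, 117 and 121 CPM, and in resistant A498 at 584, 626 and 594 CPM. The resistant A498 libraries lay about the level of 786-O and overlapped with it, and A498 stood apart below. The fitted log2 change was 0.59 ± 0.06 in resistant 786-O, 2.37 ± 0.06 in resistant A498 against A498 and -0.05 (95% interval -0.17 to 0.08) against 786-O. Among the length-scaled levels of all genes tested, CCN1 stood at percentile 99.4 in resistant 786-O and 92.1 in A498.
CCN2 (chromosome 6, 131948176 to 131951372), which encodes connective tissue growth factor, was at 30.7, 31.4 and 29.3 CPM in 786-O and at 65.9, 87.2 and 68.6 CPM in resistant 786-O. It was at 15.1, 17.0 and 18.4 CPM in A498 and at 66.8, 68.6 and 63.1 CPM in resistant A498. Both resistant groups were above both parental groups, and overlapped with each other. The log2 fold change was 1.28 ± 0.09 in resistant 786-O, 1.98 ± 0.10 in resistant A498 against A498 and 1.12 ± 0.09 against 786-O.
AMOTL2 (chromosome 3, 134355347 to 134375479) encodes an angiomotin-like protein that binds YAP and restrains it, and is itself a target. Its values were 197, 188 and 192 CPM in 786-O, 388, 357 and 424 CPM in resistant 786-O, 161, 164 and 168 CPM in A498 and 378, 377 and 395 CPM in resistant A498. The resistant groups again stood above both parental groups and overlapped with each other. The fitted log2 change was 1.02 ± 0.06 in resistant 786-O, 1.22 ± 0.06 in resistant A498 against A498 and 0.99 ± 0.06 against 786-O.

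ANKRD1 (chromosome 10, 90912096 to 90921087), which encodes a nuclear and sarcomeric ankyrin repeat protein, had the largest difference between the parental lines among the 4 targets. It was at 3.10, 3.35 and 3.83 CPM in A498 and at 122, 121 and 123 CPM in 786-O. In resistant A498 it was at 121, 111 and 107 CPM. The values in resistant 786-O were 122, 220 and 109 CPM, of which that of replicate 2 was 1.91 times the level of the other libraries. A498 was separate from all other groups, which overlapped with each other. The log2 fold change was 5.05 ± 0.25 for resistant A498 against A498 and -0.10 (95% interval -0.49 to 0.28) against 786-O. In resistant 786-O it was 0.30 (95% interval -0.08 to 0.68), and without replicate 2 it was -0.08, so that its sign rested on this library.
Replicate 2 of resistant 786-O also had the highest CCN1 and CCN2 of its group, at 1.16 and 1.30 times the level of replicates 1 and 3, and the lowest TEAD1 and YAP1, at 0.807 and 0.911 times. AMOTL2 in this library was at 0.881 times. Without it, the log2 fold changes of CCN1, CCN2 and AMOTL2 in resistant 786-O were 0.52, 1.14 and 1.07.

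**Figure D3:**
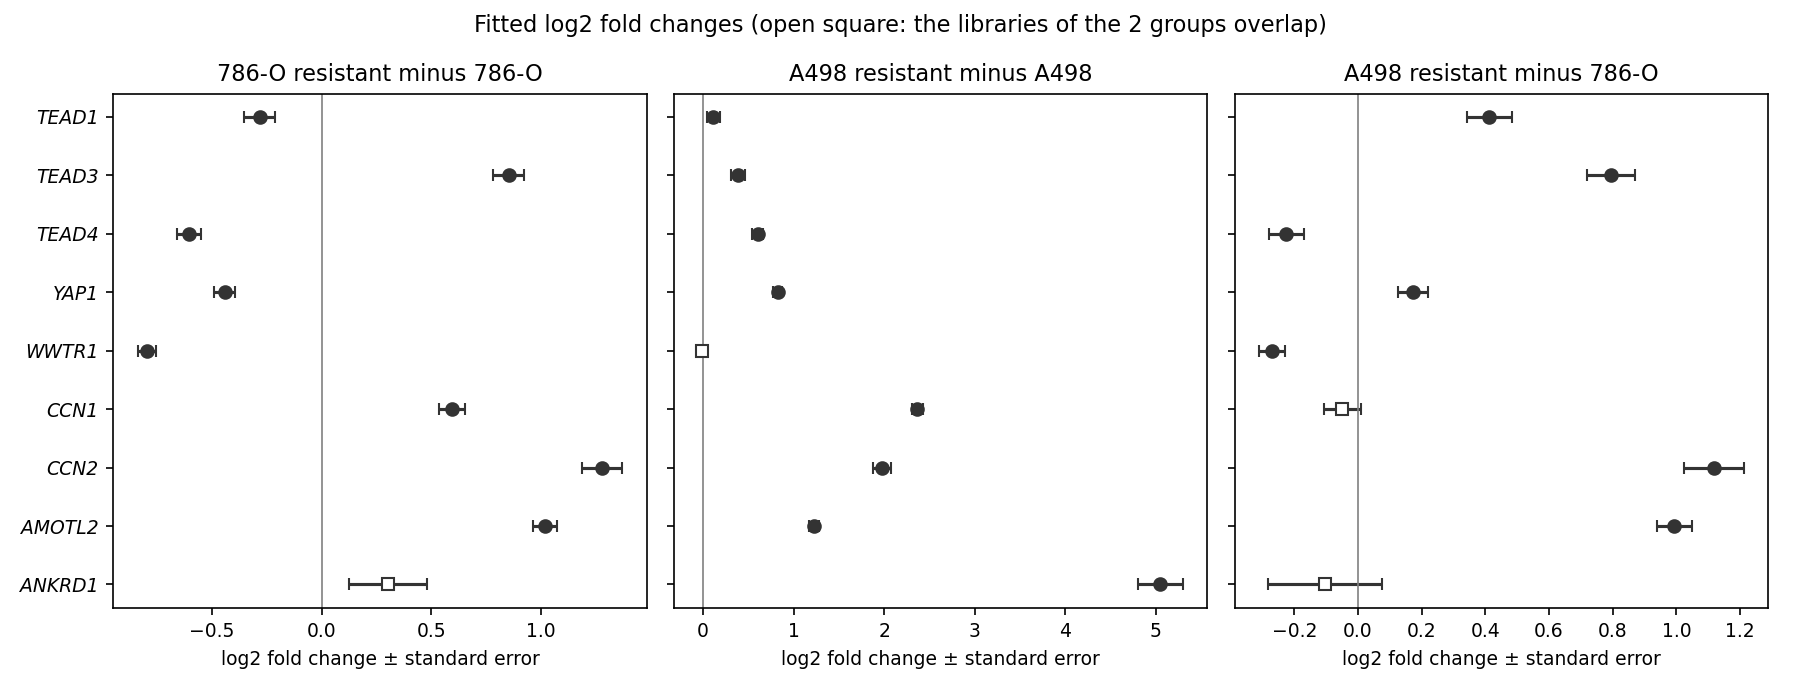
Fitted log2 fold changes with standard errors for 9 of the 10 genes, without TEAD2. The panels show resistant 786-O against 786-O, resistant A498 against A498 and resistant A498 against 786-O. Filled circles mark genes whose 3 against 3 libraries did not overlap, open squares the others, and the horizontal scales differ. CCN2 and AMOTL2 lie at or above 0.99 in all 3 panels, whereas CCN1 and ANKRD1 lie at -0.05 and -0.10 when 786-O is the reference.

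The summed level of the 4 targets, per length, was 66.0 ± 2.78 CPM per kb in A498, 279 ± 4.33 in 786-O, 313 ± 5.40 in resistant A498 and 430 ± 56.5 in resistant 786-O (mean ± SD, n = 3), without overlap between neighbours. The sum of YAP1 and WWTR1 had another order, with 30.9 ± 1.16 in resistant 786-O, 37.5 ± 0.882 in A498, 45.7 ± 0.679 in resistant A498 and 48.9 ± 0.548 in 786-O. By these sums, resistant 786-O had the least co-activator transcript and the most target transcript. A498 had the next lowest co-activator sum and the lowest target sum, so the sums did not run in opposite order throughout. CCN1 alone gave 254 ± 22.8 CPM per kb of the target sum in resistant 786-O and 163 ± 5.94 in resistant A498. CCN2, AMOTL2 and ANKRD1 each overlapped between these 2 groups, so their order in the sum rested on CCN1.
Counted over the 10 genes, 9 did not overlap between resistant 786-O and 786-O, against 68.9% of all genes tested. Of these, 5 were higher (34.5% of all genes) and 4 lower (34.4%). With edgeR and an adjusted p under 0.05, 9 were past the threshold (68.5% of all genes), 5 higher (35%) and 4 lower (33.5%).
Between resistant A498 and A498, 9 did not overlap (78.5% of all genes), 8 higher (39.4%) and 1 lower (39.1%). Of the 10, 8 were past the threshold (72.7%), 7 higher (36.3%) and 1 lower (36.4%). With 786-O as the reference, 8 did not overlap (73.4%) and 8 were past the threshold (63.6%). In both counts 6 were higher (36.2% and 31.6%) and 2 lower (37.2% and 32.1%). Between the parental lines, 10 did not overlap (80.2%) and 10 were past the threshold (74.2%). In both counts 7 were higher in 786-O (41.7% and 38.2%) and 3 lower (38.5% and 36.1%). Since the genes were chosen with these values known, nothing is read from the counts.

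The promoters of the targets are shown for the motif that TEAD proteins read. Its core was searched as GGAATG and, for the other strand, CATTCC in the 250 bases before each RefSeq gene start (GRCh38.p14). Of the 10 genes, 7 had at least 1 such window, with 10 windows in all, while TEAD1, TEAD4 and CCN1 had none in the table. CCN2 held 3 copies, ANKRD1 held 2, and YAP1 and 1 of 2 AMOTL2 windows held 1 copy each. No copy was found in the windows of TEAD2, TEAD3 and WWTR1. Of all 35116 windows in the table, 11.9% held at least 1 copy, 0.94% at least 2 and 0.0826% at least 3. A match is a description of the letters and not a measured binding site. The sequences of the windows with more than 1 copy follow, 5′ to 3′ on the minus strand as RefSeq gives them, with each copy in capitals.
CCN2, chr6:131951373-131951622: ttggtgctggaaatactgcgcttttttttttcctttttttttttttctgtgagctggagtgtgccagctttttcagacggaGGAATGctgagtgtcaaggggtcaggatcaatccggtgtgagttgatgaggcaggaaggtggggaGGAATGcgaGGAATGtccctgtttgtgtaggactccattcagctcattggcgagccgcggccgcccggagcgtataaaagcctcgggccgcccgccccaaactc
ANKRD1, chr10:90921088-90921337: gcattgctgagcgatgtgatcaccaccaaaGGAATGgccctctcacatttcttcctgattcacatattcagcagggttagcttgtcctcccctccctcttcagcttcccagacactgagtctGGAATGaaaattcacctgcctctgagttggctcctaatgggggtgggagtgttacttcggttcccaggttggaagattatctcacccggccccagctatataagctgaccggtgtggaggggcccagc
In CCN2 the copies begin 169, 104 and 95 bases before the start, and in ANKRD1 220 and 128 bases before it.

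For the pathway around these genes, 74 other genes in 5 lists were tested, of which 71 passed the filter. MAP4K1, VGLL1 and VGLL2 did not pass. Between resistant 786-O and 786-O, 28 rose and 22 fell at an adjusted p under 0.05 (edgeR quasi-likelihood test with Benjamini-Hochberg adjustment over all genes tested), or 70.4% against 68.5% of all genes. With the test of the study's methods on CPM, without adjustment, 15 rose and 21 fell. In resistant A498, 41 were higher and 18 lower than in A498, 83.1% against 72.7% of all genes. Set against 786-O instead, 40 were higher and 18 lower in resistant A498, 81.7% against 63.6%. Between 786-O and A498, 36 were higher and 25 lower in 786-O, 85.9% against 74.2% of all genes. The log2 change differed between the 2 labelled pairs of groups for 56 of the 71, 78.9% against 68.3% of all genes. Resistant A498 did not resemble A498, so this difference also takes in the one between 786-O and A498. How far it reflects resistance was not tested. No statement on the replicates names separate cultures, so that p-values measure the spread between these libraries, which may be technical.

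Of 18 other target genes of YAP and TAZ, 10 rose and 4 fell in resistant 786-O, with a median log2 fold change of 0.33 against 0.03 for all genes tested. This is 77.8% of the list, against 68.5% of all genes. With the test of the study's methods on CPM, without adjustment, 4 rose and 4 fell. In resistant A498, 12 rose and 5 fell against A498 (94.4% against 72.7% of all genes), with a median of 0.58 against -0.00 for all genes. Set against 786-O, 10 rose and 5 fell (83.3% against 63.6%), with a median of 0.35. In resistant 786-O the largest changes went in opposite directions. IGFBP3, a carrier of insulin-like growth factors, rose from 290 ± 13.1 to 1090 ± 70.2 CPM, or 1.91 ± 0.05 on the log2 scale (adjusted p = 5.7e-13, edgeR). CCDC80, a matrix protein, fell from 190 ± 1.70 to 49.2 ± 5.30 CPM, or -1.95 ± 0.06 on the log2 scale (adjusted p = 2.2e-12, edgeR).
By the labels, IGFBP3 fell in resistant A498 from 908 ± 20.7 to 599 ± 22.1 CPM, while against 786-O it stood 1.05 higher on the log2 scale (adjusted p = 2.9e-10, edgeR). CCDC80 was at 108 ± 2.38 CPM in resistant A498 and 109 ± 3.13 in A498 (adjusted p = 0.82, edgeR), and was lower than in 786-O (log2 fold change -0.81, adjusted p = 2.3e-08, edgeR). F3, which encodes tissue factor, rose in resistant A498 from 11.6 ± 0.751 to 42.8 ± 1.61 CPM (log2 fold change 1.89, adjusted p = 2.9e-08, edgeR) but was lower than in 786-O (log2 fold change -0.66, adjusted p = 0.00059, edgeR). In resistant 786-O it rose by a log2 fold change of 0.99, and by 0.74 without replicate 2. FOXF2, a forkhead factor, had 464, 338 and 343 counts in A498, 7 to 12 in resistant A498, 6 to 16 in resistant 786-O and at most 2 in 786-O, which is the pattern of TEAD2. AXL, a receptor tyrosine kinase on this list, is outside the rule for named genes and was chosen after its values were seen. It rose from 564 ± 1.09 to 720 ± 128 CPM in resistant 786-O, a log2 fold change of 0.35 ± 0.09. Replicate 2 of this group stood apart, and the value of AXL without it is not given. In resistant A498 AXL rose from 223 ± 3.88 to 742 ± 10.2 CPM. Against 786-O it was 0.40 higher there on the log2 scale.

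**Figure D4:**
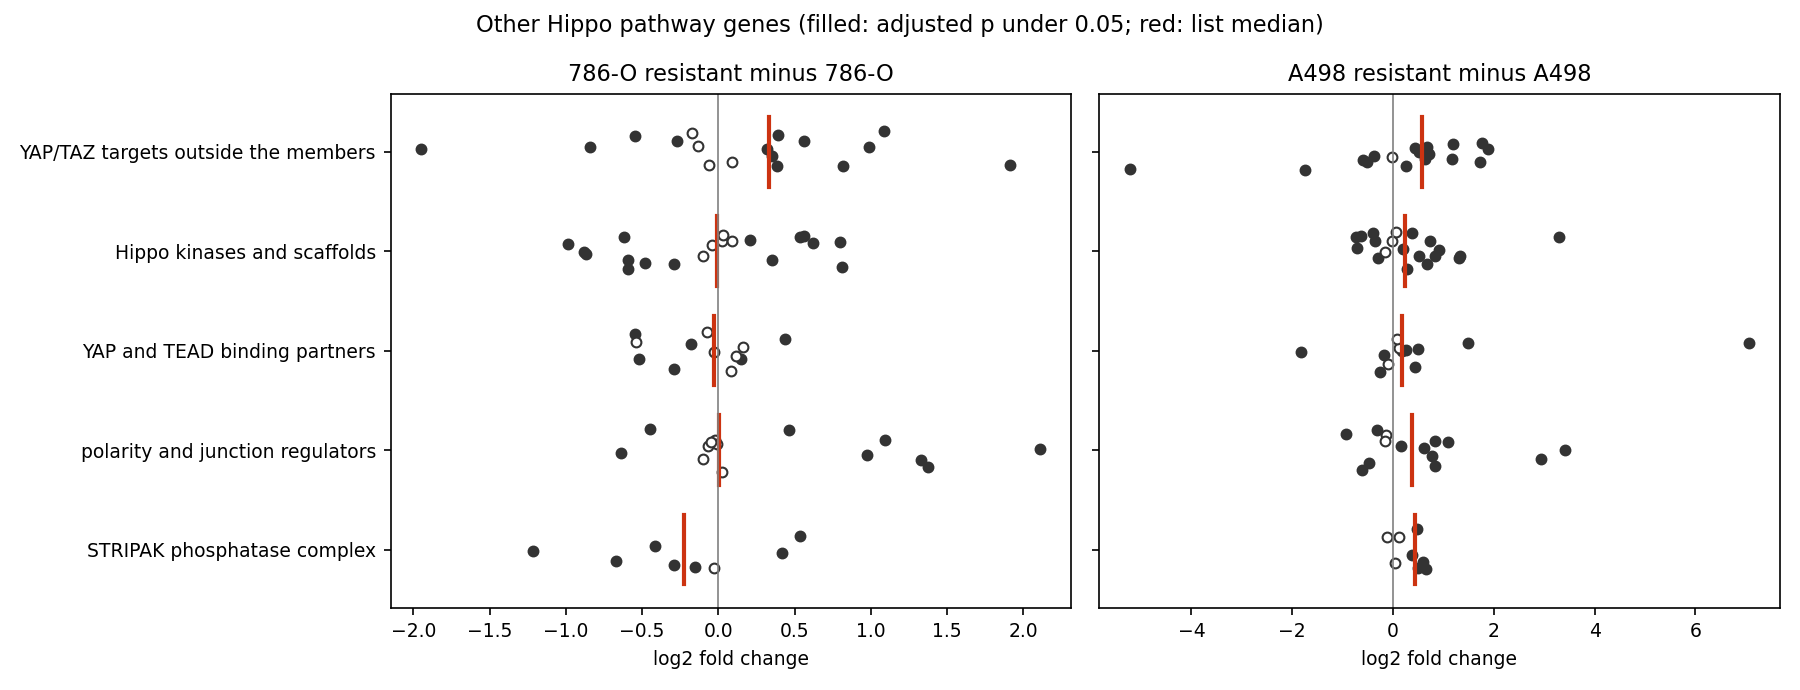
Log2 fold change of each tested gene of 5 lists of Hippo pathway genes in resistant 786-O against 786-O (left) and in resistant A498 against A498 (right), with different horizontal scales. Filled points passed an adjusted p under 0.05, the red bars are list medians, and genes with a group at no more than 3 counts in every library are not drawn. The targets have a median of 0.33 on the left and 0.58 on the right.

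Among the kinases and scaffolds of the pathway, 20 of 21 were tested. In resistant 786-O 7 rose and 8 fell (75% of the list against 68.5% of all genes), with a median log2 fold change of -0.01. Scaled by library size alone, 10 rose and 7 fell. NF2, the scaffold merlin that activates LATS kinases, fell from 146 ± 6.94 to 73.8 ± 8.84 CPM (log2 fold change -0.99, adjusted p = 1.2e-08, edgeR). MAP4K4, a kinase that acts beside MST1 and MST2, fell from 392 ± 2.22 to 213 ± 15.2 CPM (log2 fold change -0.88, adjusted p = 6.9e-10, edgeR). Both also fell in resistant A498, by log2 fold changes of -0.30 and -0.64 against A498 and -0.47 and -0.94 against 786-O.
In resistant A498 11 rose and 6 fell against A498 (85% against 72.7%), with a median of 0.24, and 14 rose and 5 fell against 786-O (95% against 63.6%), with a median of 0.38. TNIK, a kinase of the same germinal center kinase family, rose from 6.03 ± 0.613 to 58.7 ± 1.57 CPM (log2 fold change 3.29, adjusted p = 6.9e-13, edgeR). LATS1, one of the kinases that phosphorylate YAP, rose from 14.6 ± 0.916 to 36.5 ± 1.46 CPM (log2 fold change 1.32, adjusted p = 1.5e-10, edgeR). Against 786-O, LATS1 was 0.47 higher on the log2 scale, and TNIK had a log2 fold change of -0.12 (adjusted p = 0.24, edgeR). In resistant 786-O, LATS1 was at 26.7 ± 1.65 CPM against 26.4 ± 0.897 in 786-O (adjusted p = 0.79, edgeR).

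The list named YAP and TEAD binding partners also holds LIMD1, AJUBA, WTIP, BTRC, FBXW11, CSNK1D and CSNK1E, which are not all direct partners. Of its 13 tested genes, 3 rose and 4 fell in resistant 786-O (53.8% of the list against 68.5% of all genes), with a median of -0.03 (-0.08 with VGLL3 at the bound that a floor of 3 counts per library gives). VGLL3, one of the 3, had at most 5 counts in a resistant 786-O library. Scaled by library size alone, 6 rose and 3 fell. The phosphatase PTPN14, which binds YAP and is on the target list too, fell from 231 ± 13.9 to 158 ± 7.31 CPM (log2 fold change -0.55, adjusted p = 1.9e-07, edgeR). AMOT, the founding angiomotin, fell from 20.5 ± 1.39 to 14.3 ± 3.64 CPM (log2 fold change -0.52, adjusted p = 0.0027, edgeR), while AMOTL2 was higher. Without replicate 2 of resistant 786-O the value of AMOT was -0.33. Relative to 786-O, PTPN14 was also lower in resistant A498 (log2 fold change -0.31), where it was 0.25 higher than in A498.
In resistant A498 7 rose and 3 fell against A498 (76.9% against 72.7%), with a median of 0.18, or 4 and 2 where at least 10 counts were required in every library. Against 786-O, 5 rose and 3 fell (61.5% against 63.6%), with a median of 0.13, or 9 and 3 when scaled by library size alone. The third angiomotin, AMOTL1, was nearly absent from A498, with 13, 6 and 6 counts, and had 845 to 1105 counts in resistant A498, 1225 to 1553 in 786-O and 1679 to 1774 in resistant 786-O. Its log2 fold change was 7.06 ± 0.12 (adjusted p = 4.3e-16, edgeR) against A498 and 0.26 against 786-O. AMOT rose as well, from 8.76 ± 0.133 to 24.5 ± 0.425 CPM (log2 fold change 1.48, adjusted p = 2.4e-07, edgeR), and was 0.25 higher than in 786-O (adjusted p = 0.11, edgeR).

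Among 14 polarity and junction regulators, 6 rose and 2 fell in resistant 786-O (57.1% of the list against 68.5% of all genes), with a median of 0.01. In resistant A498, 8 rose and 4 fell against A498 (85.7% against 72.7%), with a median of 0.38. Against 786-O, 8 rose and 4 fell (85.7% against 63.6%), with a median of 0.36, or 9 and 2 when scaled by library size alone. CRB3, a Crumbs protein of the apical membrane, rose from 3.61 ± 0.298 to 15.6 ± 1.55 CPM in resistant 786-O (log2 fold change 2.11, adjusted p = 7.9e-11, edgeR). It rose from 1.31 ± 0.0917 to 13.97 ± 0.546 CPM in resistant A498 (log2 fold change 3.41, adjusted p = 1.8e-12, edgeR) and was 1.95 higher than in 786-O. FAT4, an atypical cadherin upstream of Hippo signaling, rose by 1.38 on the log2 scale in resistant 786-O and by 0.83 in resistant A498, or 1.29 against 786-O. The tight junction scaffold TJP1 rose in resistant A498 (log2 fold change 1.09, adjusted p = 3.6e-09, edgeR), was 0.46 higher there than in 786-O, and was not called in resistant 786-O (log2 fold change -0.10, adjusted p = 0.24, edgeR).
The STRIPAK complex carries a phosphatase that opposes MST1 and MST2. Of its 8 genes, 2 rose and 5 fell in resistant 786-O (87.5% against 68.5% of all genes), with a median of -0.22. In resistant A498, 5 rose against A498 (62.5% against 72.7%) and the other 3 were not called, with a median of 0.43. Against 786-O, 4 rose and 2 fell (75% against 63.6%), with a median of 0.20. MOB4 fell from 26.4 ± 0.0921 to 11.4 ± 1.89 CPM (log2 fold change -1.22, adjusted p = 3.7e-08, edgeR) and STRN3 from 16.5 ± 0.840 to 10.3 ± 0.536 CPM in resistant 786-O. SIKE1 and CTTNBP2NL rose in resistant A498 by log2 fold changes of 0.65 and 0.59, and both fell in resistant 786-O, by -0.41 and -0.29. Relative to 786-O, MOB4 and STRN3 were both lower in resistant A498, with log2 fold changes of -0.42 each, CTTNBP2NL was 0.34 higher and SIKE1 had a log2 fold change of 0.06 (adjusted p = 0.51, edgeR).

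Genes with the profile most like that of each of the 10 were sought by Pearson correlation of log2 CPM over the 12 libraries among the 11878 tested genes whose mean reached 5 CPM. The libraries fall into 4 groups of 3, so that these values mainly compare 4 levels. TEAD2 was most like NDUFA3 (r = 0.993), a subunit of respiratory complex I, and NEFM (r = 0.992), a neurofilament protein. NEFM was at 54.5 CPM in A498 and at no more than 0.449 CPM in any other group, while NDUFA3 was at 39.5 CPM in A498 and 15.6 to 18.9 CPM in the others. ANKRD1 was most like the noncoding RNA LINC00958 (r = 0.998) and CSRP1 (r = 0.996), a LIM domain protein of smooth muscle, which was at 10.5 CPM in A498 and 188 to 248 CPM in the others. CCN2 was most like MICA (r = 0.995), a ligand of the NKG2D receptor, and GRK2 (r = 0.994).
AMOTL2 was most like PCK2 (r = 0.995), the mitochondrial phosphoenolpyruvate carboxykinase, and METRNL (r = 0.995). CCN1 was most like ADPRS (r = 0.997), YAP1 like NR1D2 (r = 0.995) and TEAD4 like PCCB (r = 0.989). WWTR1 was most like an unnamed gene and DDX6 (r = 0.988), TEAD3 like TPP1 (r = 0.986), a lysosomal peptidase, and TEAD1 like ARIH1 (r = 0.968). A correlation over 0.95 was shared by 582 genes for ANKRD1, 355 for TEAD2 and 6 for TEAD1. TEAD1 had group means of 91.7 to 149 CPM. WWTR1, with group means of 153 to 267 CPM, had 94 such genes. Why the number was low for TEAD1 was not tested.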

How the data were processed

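Gene-level mRNA counts of 12 libraries were used, 3 for each parental and each resistant line, assigned to groups by their labels. The authors deposited raw gene counts without normalization. They had trimmed reads with Trimmomatic 0.36.6, aligned them to GRCh38 with HISAT2 2.1.0 and counted them over exons of the GENCODE 33 annotation with featureCounts 1.6.3, with a stated forward strand setting although the kit gives reverse-strand reads.

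Differences were fitted with edgeR 4.0.16 under R 4.3.3 (filterByExpr, TMM, 1 quasi-likelihood model of 12 libraries and 4 group means, prior count 0.125, Benjamini-Hochberg threshold 0.05). Standard errors were taken as the absolute log2 fold change over the square root of F. DESeq2 1.42.0 was an alternative, and the code was tested on simulated data. The test named in the study's methods was run on CPM without adjustment as an alternative only. Gene symbols matched 45283 of 45478 rows, and positions and exon lengths are from GENCODE 44 of the same assembly. Total counts of 20042519 or more per library make counting error small except for genes of few counts. The floor was 3 counts per library, and a group whose libraries were all at or under it got no fitted fold in the text.

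The 10 genes, the 5 lists and the tests were chosen with earlier results of these data known. Of each list, the 2 genes with the largest change in resistant 786-O and in resistant A498 were named, given an adjusted p under 0.05, 5 CPM or more on average in the group where they were higher and no overlap, and for each of the 10 genes the 2 most correlated genes were found. LATS2 and PTPN14 are on 2 lists each. Of fibroblast and endothelial markers, LUM was above 1 CPM in 786-O, resistant 786-O and resistant A498, PDGFRB in resistant A498 only, and the summed level of the 6 was at most 22.9 CPM. The remaining alternatives were scaling by library size or by size factors, other filters, fits of single comparisons, a prior count of 2, the replicate number as a block, a required log2 fold change of 1 and each library left out.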

Additional observations from a re-analysis of the deposited data

Results flagged for a closer look

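In the edgeR test of the difference itself, 56 of 71 pathway genes had unequal log2 changes between the 2 pairs of groups at an adjusted p under 0.05, against 68.3% of all genes tested. In the following, a value is the log2 change in resistant A498 minus the log2 change in resistant 786-O, each against its own parental line. It was positive for AMOTL1 (6.91), TNIK (3.89), AMOT (2.00), CCDC80 (1.93), LATS1 (1.30), CRB3 (1.30), MOB4 (1.26), TJP1 (1.19) and SIKE1 (1.06). Smaller positive values were found for F3 (0.90), CTTNBP2NL (0.88), PTPN14 (0.80), NF2 (0.69), STRN3 (0.56) and MAP4K4 (0.24). It was negative for IGFBP3 (-2.51) and FAT4 (-0.55). The libraries labelled resistant A498 were closer to 786-O than to A498, and relative to 786-O their log2 fold changes were 0.26 for AMOTL1, -0.12 for TNIK, 0.25 for AMOT, -0.81 for CCDC80, 0.47 for LATS1 and 1.05 for IGFBP3. For the same genes, 786-O relative to A498 was at 6.80 for AMOTL1, 3.42 for TNIK and 1.23 for AMOT. It was at 0.80 for CCDC80, 0.86 for LATS1 and -1.65 for IGFBP3.

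For TEAD1 (0.39), TEAD4 (1.21) and YAP1 (1.27), all libraries of resistant 786-O were lower than those of 786-O and all libraries of resistant A498 higher than those of A498, and this difference was not tested because the genes were chosen with their values known. TEAD2 and FOXF2 are given without a fitted fold change, because 786-O had at most 3 counts of either in a library. Relative to 786-O, resistant A498 had log2 fold changes of 0.41 for TEAD1, -0.23 for TEAD4 and 0.17 for YAP1.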

How the results depend on the processing

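Requiring a log2 fold change over 1 moved the counts of called pathway genes most, from 50 to 10 in resistant 786-O, from 59 to 17 in resistant A498 against A498, from 58 to 11 against 786-O, from 61 to 20 between 786-O and A498, and from 56 to 23 for the difference between the changes, since fewer genes meet 2 conditions. The other alternatives kept these 5 totals within 1.5 times, but not each split or list. With the test of the study's methods, the split in resistant 786-O went from 28 higher and 22 lower to 15 and 21, and the called targets from 14 to 8. With at least 10 counts in every library, the called genes of the binding partner list in resistant A498 against A498 went from 10 to 6. With each library left out in turn, the 5 totals ranged from 48 to 53, 57 to 59, 55 to 57, 58 to 62 and 54 to 63. Of 478 recomputed log2 fold changes of the 10 genes, 404 moved by less than the spread between replicates, and no value past the threshold changed sign. Scaling by library size alone shifted the median of all genes from 0.03 to 0.18 in resistant 786-O and from 0.00 to 0.15 in resistant A498 against 786-O, and the 10 genes with it. With that scaling, CCN1 and ANKRD1 in resistant A498 against 786-O were 0.10 and 0.05. AMOTL1 in resistant 786-O was not called without replicate 2 (log2 fold change 0.10) or without any single 786-O library (0.11 to 0.17).

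The replicate numbers of the labels were not found to pair the libraries, as same-numbered libraries had correlations of their deviations from -0.18 to 0.10. With the replicate block, 50, 58, 58, 60 and 55 pathway genes were called. Depth limits TEAD2 and FOXF2 outside A498, and VGLL3, with at most 13 counts in a library, in every group.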
